A study of Mus musculus with 3 samples.

Results

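The cells described here were the non-cycling *Sox17*/*Msx1*-positive adenoma cells of the mouse small intestine, 2060 of 42055 cell barcodes, of which 171 came from the *LApc* library and 1889 from the *LApcL* library. They were chosen by their transcripts. A barcode with at least 500 detected genes and at most 20% mitochondrial UMIs (unique molecular identifiers, each standing for 1 captured RNA molecule) was a member when *Sox17* and *Msx1* together had 3 or more UMIs. In addition *Wfdc18* had to stay under 0.12%, *Defa24* under 0.5% and *Tff3* under 2% of its UMIs, and 8 genes of mitosis (*Mki67*, *Top2a*, *Birc5*, *Ube2c*, *Cdk1*, *Ccnb1*, *Ccnb2* and *Cenpf*) had at most 1 UMI together. All 3 libraries held EpCAM-sorted epithelial cells of C57BL/6 mice. The mice had been given 2 doses of tamoxifen of 2 mg when 7 to 8 weeks old. WT was the wild type and was taken at day 21. *LApc* was Lgr5-CreERT2;Apc fl/fl, in which Cre is made from the *Lgr5* locus of intestinal stem cells, and was taken at day 29. *LApcL* carried Lgr5-CreERT2 and Apc fl/fl as well, and in addition Lef1 fl/fl, and was taken at day 21. Each genotype had 1 library, so genotype cannot be told apart from mouse and library, nor for *LApc* from day, and no p-value was computed. Intervals are at 95% and describe the counting of molecules alone, since differences from mouse to mouse could not be measured.

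*Apc* encodes a scaffold of the complex that destroys β-catenin, and its loss in a crypt stem cell lets β-catenin build up and act with Tcf/Lef factors, of which Lef1 is one, on Wnt target genes. *Sox17* encodes an Sry-box transcription factor of endoderm and endothelium, and *Msx1* encodes a homeobox transcription factor of embryonic tissues. Neither is a usual product of the adult small-intestinal epithelium. S100g is the cytosolic calcium-binding protein calbindin-D9k, Ifitm1 is a small interferon-induced membrane protein that is also known as a Wnt target, and clusterin (*Clu*) is a secreted chaperone that marks regenerating intestinal epithelium.

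In WT, 0 of 11391 barcodes that passed the limits on genes and mitochondrial UMIs were members, which allows a share of up to 0.0263%. Members were 1.57% (1.35 to 1.83) of 10864 such barcodes in *LApc* and 11.1% (10.7 to 11.6) of 16972 in *LApcL*. The cycling cells with the same *Sox17* and *Msx1* limit, which had 2 or more UMIs of the 8 mitosis genes, numbered 1, 294 and 7372. Non-cycling cells were thus 36.8% (32.4 to 41.3) of the *Sox17*/*Msx1*-positive cells in *LApc* and 20.4% (19.6 to 21.2) in *LApcL*. Depth entered this division. The median member had 7164 UMIs in *LApc* and 9064 in *LApcL*, against 10866.5 and 13271 in the cycling cells. When every barcode with at least 3000 UMIs was thinned to 3000 before the limits were applied, non-cycling cells were 65.6% (57.8 to 72.9) and 53.8% (52.1 to 55.6). Barcodes with fewer UMIs, 1073 in *LApc* and 142 in *LApcL*, were left out, and the part of this unequal loss was not tested. Of the 1759 thinned members of *LApcL*, 915 had been cycling cells at full depth. The interval of *LApc* stayed above that of *LApcL* at both depths.

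The rule could be met in several ways. In *LApc*, 92 members (53.8%) had UMIs of both genes, 60 (35.1%) of *Sox17* alone and 19 (11.1%) of *Msx1* alone. In *LApcL*, the numbers were 1450 (76.8%), 169 (8.95%) and 270 (14.3%). Members with *Sox17* and no *Msx1* were therefore a larger share in *LApc*. Exactly 3 summed UMIs were seen in 47 members (27.5%) of *LApc* and 317 (16.8%) of *LApcL*, and the highest sums were 26 and 34. No mitosis UMI at all was seen in 117 members (68.4%) and 915 members (48.4%). On either side of the *Sox17*/*Msx1* limit, *S100g* stood at 9392 CPM (UMIs scaled to an equal total in every class) in the 72 *LApc* cells with 2 UMIs and 5568 CPM in the 47 members with 3, and at 3306 and 4008 CPM in the corresponding 369 and 317 *LApcL* cells. On either side of the mitosis limit it stood at 8515 CPM in the 54 *LApc* members with 1 mitosis UMI and 8687 CPM in the 35 cells with 2, and at 6403 and 5450 CPM in 974 and 763 *LApcL* cells.

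A UMI of *Sox17* or *Msx1* was present in 0.184% of all filtered barcodes of WT, 10.2% of *LApc* and 76.0% of *LApcL*, adenoma cells included. Among enterocytes (barcodes with at least 1% of their UMIs from *Fabp1*, *Apoa1* and *Apoa4*), 3 or more were present in 0 of 1530, 12 of 2914 (0.412%) and 139 of 1076 (12.9%). Members above that enterocyte limit numbered 7 and 45. Scrublet, a doublet caller, marked 14 members (8.19%) of *LApc* and 172 (9.11%) of *LApcL* when the highest scores were marked at expected rates of 10.6% and 13.9%, and no cell was removed for it. The *LApc* and *LApcL* libraries shared 318 barcodes, none of them a member in both. The part of free RNA and of doublets in the *LApcL* number was not tested.

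The label of epithelial cells fitted the markers. *Epcam* stood at 1428 CPM in *LApc* members and 1476 CPM in *LApcL* members, *Krt8* at 1759 and 2018 CPM, and the villin gene *Vil1* at 117 and 125 CPM. Because Sox17 is also an endothelial factor, 5 endothelial genes were read beside it, and 6 more that were chosen after values had been seen. In the first list, *Cdh5*, the cadherin of vessel walls, was present at 34.4 CPM in *LApc* members and 20.7 CPM in *LApcL* members. *Pecam1* was at 0.749 and 0.669 CPM in members, and *Kdr*, *Emcn* and *Cldn5* were at 0 in *LApc* members and at 0.112, 0.112 and 0.0558 CPM in *LApcL* members. The 6 added genes summed to 242 and 155 CPM in members and to 23.8, 33.6 and 36.4 CPM in crypt cells of WT, *LApc* and *LApcL*. Most of that sum was *Ecscr*, a surface protein of endothelial cells, at 210 and 108 CPM in members and 3.05, 19.2 and 18.2 CPM in crypt cells. *Egfl7*, a secreted endothelial factor, stood at 15.7 and 26.3 CPM in members, *Esam* at 8.23 and 10.4 CPM and the angiopoietin receptor gene *Tek* at 8.23 and 9.87 CPM. *Tie1* was at 0 in members of both libraries, and *Plvap* was at 0 in *LApc* and 0.0558 CPM in *LApcL* members. Endothelial genes were thus partly present, and their source was not tested. Summed over each list, 6 immune genes stood at 4.49 and 1.56 CPM and 5 stromal genes at 3.74 and 0.613 CPM.

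The crypt cells used for comparison had the same limits on genes, mitochondrial UMIs, *Wfdc18*, *Defa24*, *Tff3* and mitosis genes, no UMI of *Sox17* or *Msx1*, and 3 or more summed UMIs of the crypt base genes *Lgr5*, *Olfm4* and *Slc12a2*. They numbered 405 in WT, 540 in *LApc* and 304 in *LApcL*, with medians of 8153, 5388.5 and 6733.5 UMIs.

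**Figure D1:**
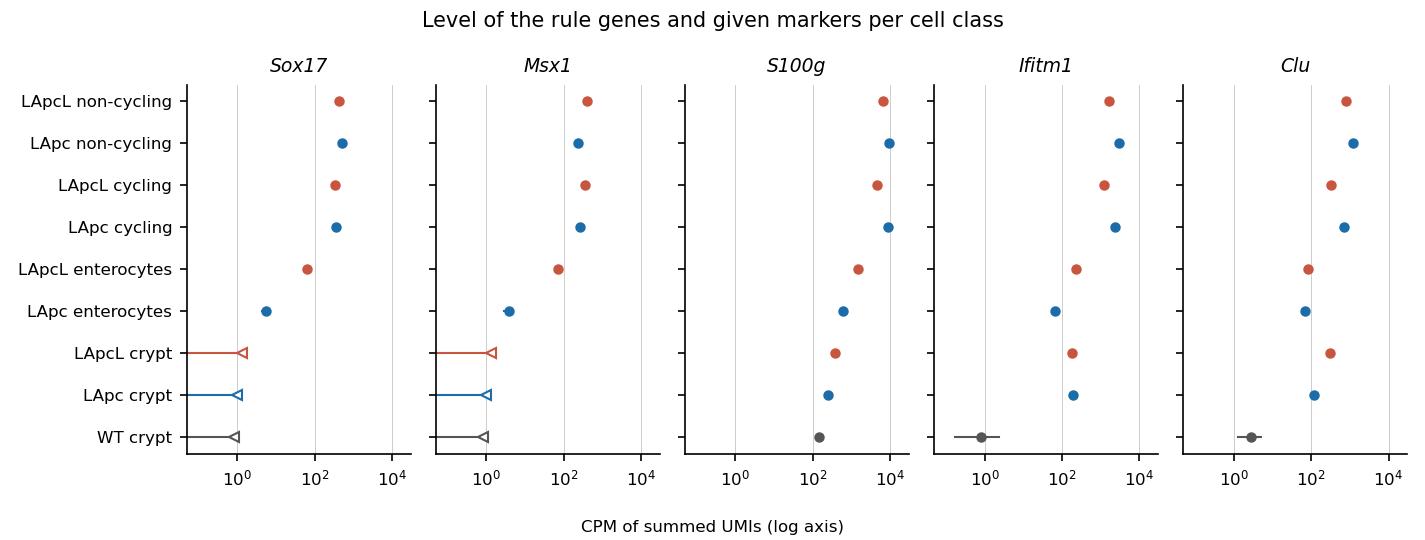
Level of the 5 marker genes in each class of cells, in CPM of summed UMIs on a log axis. Points are classes of cells within a library, horizontal lines are exact Poisson 95% intervals, and open triangles are upper limits where no UMI was counted. *S100g* and *Ifitm1* stood far above the crypt cells in the members of both adenoma libraries, and *S100g*, *Ifitm1* and *Clu* stood higher in *LApc* than in *LApcL* members.

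*Sox17* (ENSMUSG00000025902, mm10 chromosome 1, 4490931 to 4497354, minus strand) and *Msx1* (ENSMUSG00000048450, chromosome 5, 37820485 to 37824583, minus strand) chose the members, so their levels are a description. *Sox17* stood at 496 CPM (459 to 535) in *LApc* members and 413 CPM (404 to 423) in *LApcL* members, a log2 ratio of *LApcL* over *LApc* of -0.26 (-0.38 to -0.15). *Msx1* stood at 235 CPM (210 to 263) and 400.3 CPM (391 to 410), a log2 ratio of 0.77 (0.60 to 0.94). The balance of the pair therefore leaned to *Sox17* in *LApc* and was nearly even in *LApcL*. In the cycling cells, *Sox17* stood at 359 and 327 CPM and *Msx1* at 267 and 343 CPM.

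The other 3 markers were not part of the rule. *S100g* (ENSMUSG00000040808, chromosome X, 162961992 to 162964599, minus strand) stood at 9413 CPM (9249 to 9579) in *LApc* members and 6310 CPM (6274 to 6347) in *LApcL* members. In crypt cells it stood at 142 (WT), 239 (*LApc*) and 365 CPM (*LApcL*), and within each library the log2 ratio of members over crypt cells was 5.30 and 4.11. Close to 1 in 100 RNA molecules captured from *LApc* members was thus an *S100g* transcript. *Ifitm1* (ENSMUSG00000025491, chromosome 7, 140967221 to 140969825, plus strand) stood at 2930 CPM (2839 to 3023) and 1610 CPM in members, and at 0.832, 196 and 182 CPM in the crypt cells of WT, *LApc* and *LApcL*. Its log2 ratios over the crypt cells of the same library were 3.90 and 3.14. *Clu* (ENSMUSG00000022037, chromosome 14, 65968483 to 65981547, plus strand) stood at 1204 CPM (1146 to 1264) and 794.5 CPM, against 2.77, 116 and 308 CPM in crypt cells, log2 ratios of 3.38 and 1.37. *Ifitm1* and *Clu* stood higher in crypt cells of both adenoma libraries than in those of WT, whose *Ifitm1* UMIs were nearly 0. The *S100g* level of *LApc* crypt cells came from few cells. At 3000 UMIs per cell, 80.7% of them had no *S100g* UMI and the richest had 109, while 72.3% of WT and 34.2% of *LApcL* crypt cells had none. With each cell thinned to 3000 UMIs, an *Ifitm1* UMI was found in 90.5% of *LApc* members, 82.3% of *LApcL* members and 0.494% of WT crypt cells. A *Clu* UMI was found in 54.4% and 37.9% of members and 0.741% of WT crypt cells, but in 24.6% of the *LApcL* crypt cells.

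The promoters of 3 of the markers are shown because Tcf/Lef factors, which bind the letters CTTTGA or CTTTGT on either strand, are the arm of the pathway that *Lef1* belongs to. They are the 250 bases before the RefSeq start of each gene in GRCm38.p6, read 5′ to 3′ along the gene, with matches to TCAAAG or ACAAAG, the same letters on the other strand, in capitals.
Msx1 promoter (chr5:37824586-37824835, minus strand): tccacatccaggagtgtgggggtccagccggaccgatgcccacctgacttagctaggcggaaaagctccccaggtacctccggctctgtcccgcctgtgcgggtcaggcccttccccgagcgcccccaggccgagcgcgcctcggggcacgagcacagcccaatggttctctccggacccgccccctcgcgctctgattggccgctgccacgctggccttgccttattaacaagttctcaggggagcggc
S100g promoter (chrX:162964600-162964849, minus strand): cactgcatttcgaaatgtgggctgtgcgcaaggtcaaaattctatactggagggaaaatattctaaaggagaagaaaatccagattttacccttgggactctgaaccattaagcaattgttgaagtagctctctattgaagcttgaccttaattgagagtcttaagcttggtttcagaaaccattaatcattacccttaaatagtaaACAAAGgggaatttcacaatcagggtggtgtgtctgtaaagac
Ifitm1 promoter (chr7:140967826-140968075, plus strand): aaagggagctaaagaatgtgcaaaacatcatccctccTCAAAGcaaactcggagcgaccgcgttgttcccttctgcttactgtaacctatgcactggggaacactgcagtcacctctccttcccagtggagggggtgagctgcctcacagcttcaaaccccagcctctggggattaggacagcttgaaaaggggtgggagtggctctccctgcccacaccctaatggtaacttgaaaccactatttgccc
The *S100g* window held 1 match, ACAAAG, that began 43 bases before the start, the *Ifitm1* window held 1 match, TCAAAG, 213 bases before the start, and the *Msx1* window held 0. The *Ifitm1* window lies within the gene span given above, so it precedes a start inside that span and not the first base of the span. Of 32851 RefSeq promoter windows of 250 bases, 13.8% held CTTTGA or TCAAAG, 16.5% held CTTTGT or ACAAAG and 27.6% held either, so a match in such a window is common. Of the 15 genes that stood highest over crypt cells in both libraries, 10 had a promoter in the table, and 4 of them held a match. Of the 15 that stood lowest, 13 had one, and 6 held a match.

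Compared with crypt cells of the same library, members carried a broad second set of transcripts. Among genes with a mean of at least 25 CPM over both sides, 435 of 4587 (9.48%) were 2-fold or more higher and 193 (4.21%) lower in *LApc*, and 166 of 4347 (3.82%) higher and 103 (2.37%) lower in *LApcL*. In both libraries together, 127 of 4176 genes (3.04%) were higher and 77 (1.84%) lower. The median gene itself stood at a log2 ratio of 0.25 in *LApc* and 0.12 in *LApcL*, and with totals that left out ribosomal protein and mitochondrial genes the counts became 294 higher and 280 lower in *LApc* and 128 and 128 in *LApcL*. Against WT crypt cells, 528 of 4499 genes (11.7%) were higher and 217 (4.82%) lower in *LApc* members, 268 of 4319 (6.21%) and 210 (4.86%) in *LApcL* members, and 230 (5.47%) and 159 (3.78%) of 4203 in both. Except for *Axin2*, the genes named from this comparison stood further from 0 than the shift.

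Among the genes that led the higher side, the myosin light chain gene *Myl9* stood at 663 CPM in *LApc* members and 485 CPM in *LApcL* members, against 0.277 CPM in WT crypt cells, and its log2 ratios over the crypt cells of the same library were 5.26 and 3.31. The galectin gene *Lgals1* stood at 276 and 151 CPM, with log2 ratios of 5.75 and 3.16. The actin-associated *Pdlim4* stood at 75.6 and 102 CPM, with ratios of 4.43 and 3.94. *Ctsl*, a lysosomal protease, reached 845 and 523 CPM, with ratios of 4.23 and 2.82. *Pitx1*, a homeobox factor of the hindlimb, stood at 274 and 124 CPM (3.59 and 2.74), and the apolipoprotein genes *Apoa2* and *Apoe* had ratios of 4.95 and 4.31, and of 3.32 and 2.50. *Cdkn1c*, which encodes the cell-cycle inhibitor p57, stood at 114 and 52.6 CPM in members against 6.66, 19.8 and 9.32 CPM in crypt cells, ratios of 2.52 and 2.50.

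Members of several lists were among the higher genes. Lists are counted whole here, since a gene near 0 in crypt cells could reach the limit of 25 CPM through the members alone. Of all measured genes, 9.48% in *LApc* and 3.82% in *LApcL* were 2-fold or more higher than in crypt cells. Of the 15 genes of the fetal and regenerative list, 9 in *LApc* and 4 in *LApcL* were 2-fold or more higher than in crypt cells, 0 were lower, and 6 and 7 were too low to compare. The annexin *Anxa1* shows the gap between the libraries, with 182 and 69.4 CPM in members and 0, 7.36 and 39.5 CPM in the crypt cells of WT, *LApc* and *LApcL*. Of 9 genes of the Bmp pathway, 4 were 2-fold or more higher in both libraries and 4 were too low to compare. The Id genes, which encode inhibitors of basic helix-loop-helix factors and are targets of Bmp signalling, stood at 415 and 451 CPM (*Id1*), 196 and 186 CPM (*Id2*) and 655 and 731 CPM (*Id3*), with log2 ratios over crypt cells between 1.64 and 2.74. The inhibitor *Smad7* had ratios of 2.28 and 1.12. All 3 genes of the Ifitm family were higher in both libraries, *Ifitm2* by 1.79 and 1.49 and *Ifitm3* by 2.09 and 1.09. These 3 genes are close relatives, and reads shared between them could be assigned uncertainly. Of the 11 genes of the glycolysis and hypoxia list, 6 and 3 were 2-fold or more higher, *Bnip3* by 3.59 and 2.62 and *Ldha* by 1.31 and 0.83.

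Of the 9 genes of the Wnt feedback list, 4 in *LApc* and 2 in *LApcL* were 2-fold or more higher than in crypt cells. That stands beside 9.48% and 3.82% of all measured genes. In the list, 3 and 5 genes were too low to compare. *Nkd1*, which restrains Dishevelled, stood at 378 CPM in *LApc* members and 177 CPM in *LApcL* members against 5.82, 69.4 and 59.0 CPM in crypt cells, log2 ratios of 2.45 and 1.59. *Notum*, a secreted enzyme that inactivates Wnt proteins, stood at 225 and 118 CPM against 0.277, 32.6 and 35.9 CPM, ratios of 2.78 and 1.71. *Axin2*, a target used widely as a Wnt reporter, differed little, with 160 and 154 CPM against 109, 123 and 142 CPM. Of 10 Wnt target genes, 2 in *LApc* and 1 in *LApcL* were 2-fold or more higher and 0 were lower, with medians of 0.33 and 0.14 against 0.25 and 0.12 over all genes. *Prox1*, a homeobox gene of intestinal tumours, was the one in both libraries, at 2.29 and 2.17. Of 9 genes of Tcf/Lef factors and corepressors, 4 and 3 could be compared, and *Tle1* alone was 2-fold or more higher, at 2.35 and 1.26.

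On the lower side, the calcium-activated chloride channel regulator gene *Clca3b* stood at 18.7 CPM in *LApc* members against 399 CPM in crypt cells, and at 23.9 against 347 CPM in *LApcL*, log2 ratios of -4.41 and -3.86. The elongation factor gene *Tcea3* had ratios of -2.95 and -3.22, the urea cycle gene *Otc* -3.04 and -2.91, the mucosal defence gene *Dmbt1* -3.35 and -2.88 and the aldehyde dehydrogenase gene *Aldh1b1* -2.83 and -2.66. *Vdr*, the vitamin D receptor gene, stood at 22.5 and 20.1 CPM in members and 178, 169 and 111 CPM in crypt cells, ratios of -2.91 and -2.47. Its level was therefore low in the cells in which *S100g*, known as a vitamin D-induced gene of the duodenum, was high. In members of both libraries, *Vdr* and *Clca3b* did not reach the CPM limit of a measured gene. They entered through the crypt cells, so their direction was set by that limit. The same may hold for other genes named on this side. The intestinal homeobox gene *Cdx1* had ratios of -1.66 and -0.96 and *Hnf4a* of -1.53 and -0.65, while *Gata4* stood higher, at 1.42 and 1.36. Of the 7 genes of the MHC class II list, 6 in *LApc* and 4 in *LApcL* could be compared. All of those were 2-fold or more lower, beside 4.21% and 2.37% of all measured genes, *Cd74* by -2.13 and -1.98. In *LApcL* members, *H2-Aa* of this list did not reach the CPM limit either. Its direction there was set by the limit, and so in part was the count of the list. The levels of *Lgr5*, *Olfm4* and *Slc12a2* chose the crypt cells and are not compared.

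The contrast with cycling adenoma cells of the same library was made by the rule itself, so its values describe what the division selected. Of 4843 genes in *LApc*, 72 (1.49%) were 2-fold or more higher and 118 (2.44%) lower in members, and of 4489 in *LApcL*, 27 (0.601%) and 80 (1.78%). In both libraries, 12 of 4329 genes (0.277%) were higher and 72 (1.66%) lower. Outside the 8 genes of the rule, 10 further mitosis genes were read, and 4 were high enough to compare. All 4 were lower in both libraries. None of the 10 averaged 25 CPM over the members of both libraries. The 4 thus reached that limit through the cycling cells, so their direction was set by the limit. *Ccna2*, the cyclin of S phase and G2, stood at 3.74 and 6.41 CPM in members and 78.0 and 70.1 CPM in cycling cells, log2 ratios of -4.38 and -3.45. *Cdc20*, an activator of the anaphase-promoting complex, had ratios of -4.24 and -3.32 and *Plk1*, a mitotic kinase, of -3.31 and -2.99. With each cell thinned to 3000 UMIs, 92.3% of *LApc* members and 87.3% of *LApcL* members had no UMI of these 10 genes, against 90.4%, 90.6% and 90.4% of WT, *LApc* and *LApcL* crypt cells and 37.8% and 42.1% of cycling cells.

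Genes of DNA replication were lower by less. Of 15 measured S phase genes, 9 in *LApc* and 6 in *LApcL* were 2-fold or more lower, beside 2.44% and 1.78% of all measured genes. The medians of the list were -1.31 and -0.85. *Rrm1*, *Rrm2*, *Gins2*, *Cdt1* and *Uhrf1* did not reach the CPM limit of a measured gene over the members of both libraries. They could enter through the cycling cells, so the limit favoured a lower value. All were among the 9 in *LApc*, and all except *Cdt1* among the 6 in *LApcL*. These counts and medians were therefore partly set by the limit. *Mcm5* and *Tyms* were 2-fold or more lower in both libraries without that restriction. *Pcna*, the sliding clamp of DNA polymerase, stood at 56.9 and 37.4 CPM in members and 95.3 and 63.6 CPM in cycling cells, ratios of -0.74 and -0.77. *Rrm2*, a subunit of ribonucleotide reductase, had ratios of -3.22 and -2.79. The mean number of S phase UMIs per 3000 was 1.36 and 1.71 in members, 3.35 and 3.35 in cycling cells, 2.82, 2.20 and 2.39 in crypt cells of WT, *LApc* and *LApcL*, and 0.503, 0.504 and 0.868 in enterocytes. Members thus held fewer S phase transcripts than crypt cells with the same mitosis limit and more than enterocytes. In 18.3% of *LApc* members and 24.0% of *LApcL* members there were still 3 or more.

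D-type cyclins and inhibitors did not follow these genes. *Ccnd2* stood at 638 and 802 CPM in members against 364 and 596 CPM in cycling cells, ratios of 0.81 and 0.43, whereas *Ccnd1* stood at 98.1 and 86.6 against 140 and 105 CPM, ratios of -0.52 and -0.28. *Cdkn1c* was higher by 0.79 and 0.71, and the antiproliferative *Btg2* by 0.69 and 0.50. All 9 measured Myc-related nucleolar genes had intervals below 0 in both libraries, with medians of -0.60 and -0.49. Over all genes, intervals lay below 0 for 889 of 4843 (18.4%) in *LApc* and 1863 of 4489 (41.5%) in *LApcL*. Among them, *Ncl*, which encodes nucleolin, stood at 744 and 993 CPM against 1214 and 1408 CPM. The Wnt feedback genes *Nkd1* and *Notum* stood higher than in cycling cells, by 0.55 and 0.53 and by 0.48 and 0.31, while *Myc* differed by 0.39 and 0.17.

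**Figure D2:**
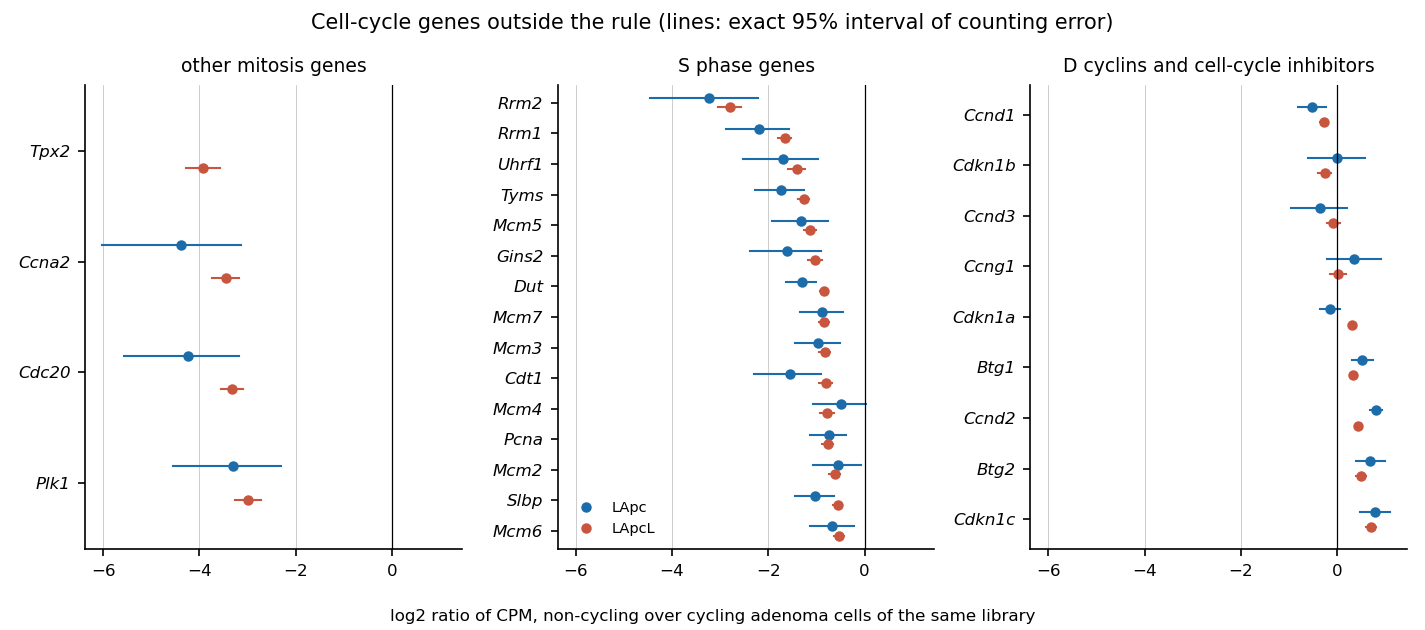
Log2 ratio of members over cycling adenoma cells for further mitosis genes, S phase genes, and D cyclins with inhibitors, in *LApc* and *LApcL*. Points are genes with lines for the exact conditional 95% interval, and *Tpx2* has no *LApc* point because members had 0 UMIs. *Ccna2* (-4.38 and -3.45), *Cdc20* and *Plk1* (-3.31 and -2.99) lie far below 0, *Pcna* (-0.74 and -0.77) lies closer to it, and *Ccnd2* and *Cdkn1c* lie above it.

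Among the genes that stood highest over cycling cells, *Atp4a*, the alpha subunit of the gastric proton pump, stood at 473 and 95.2 CPM in members against 34.7 and 26.7 CPM in cycling cells, ratios of 3.77 and 1.83. *Apoa2* had ratios of 2.96 and 1.74, *Dnase1*, a secreted nuclease, of 3.12 and 1.62, *Pcp4l1* of 2.63 and 1.69, the water channel gene *Aqp8* of 2.88 and 1.01 and *Gkn3*, a gastrokine of the stomach, of 1.41 and 1.01. Among the markers, *Clu* had ratios of 0.74 and 1.32, *S100g* of 0.11 and 0.46 and *Ifitm1* of 0.36 and 0.43. *Clu* thus separated members from cycling cells more than the other markers did.

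Members were not alike. After thinning to 3000 UMIs, the *S100g* count of a single member ran from 0 to 174 in *LApc* (169 cells) and from 0 to 259 in *LApcL* (1885 cells), with medians of 2 and 3. In *LApc*, 40.2% had no *S100g* UMI, 17.2% had 1 to 3, 8.28% had 4 to 9, 8.88% had 10 to 29 and 25.4% had 30 or more. In *LApcL*, the shares were 14.6%, 35.8%, 17.7%, 15.1% and 16.9%. The *LApc* members therefore fell mostly at the ends of the range. Of the *LApcL* crypt cells, 61.8% had 1 to 3 *S100g* UMIs and 0 of 301 had 10 or more, so 1 to 3 UMIs in that library are at the level of cells without *Sox17* and *Msx1*. In WT crypt cells, 0.247% had 10 or more. At full depth the 18 richest members held 55.2% of the *S100g* UMIs in *LApc*. The variance over the mean was 72.0 in *LApc*, the highest of all genes there, and 58.9 in *LApcL*, the seventh highest, while the median gene had 1.03 and 1.02. Cycling cells were spread in a like way, with 30 or more UMIs in 27.9% and 13.3% and none in 36.7% and 15.4%.

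**Figure D3:**
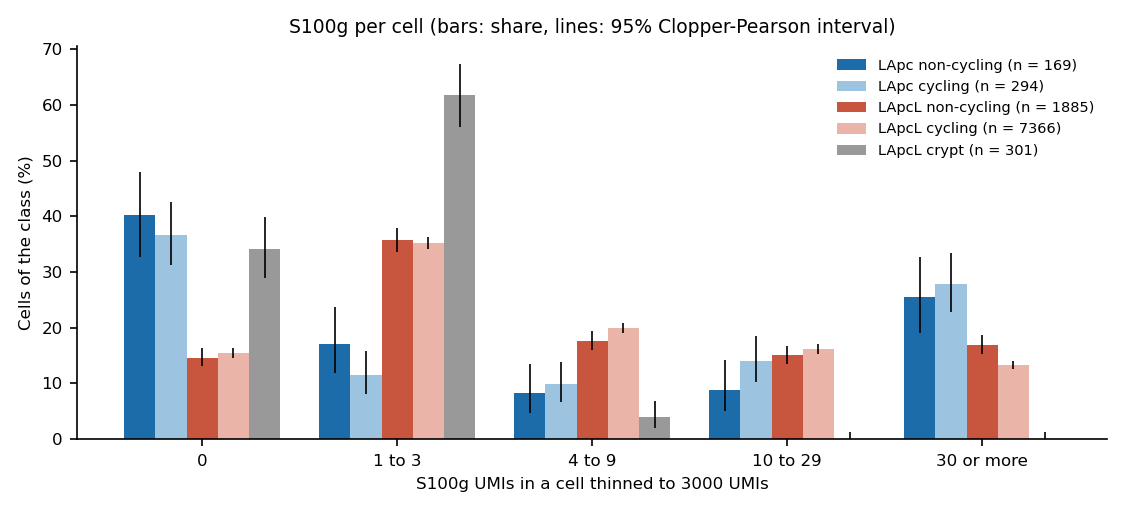
Share of cells (percent) by their number of *S100g* UMIs per 3000 UMIs, for non-cycling and cycling adenoma cells of *LApc* and *LApcL* and for crypt cells of *LApcL*. The *LApc* members have their tallest bars at 0 and at 30 or more (40.2% and 25.4%), whereas *LApcL* members are most often in the bin of 1 to 3 (35.8%), where 61.8% of *LApcL* crypt cells lie.

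Members with 10 or more *S100g* UMIs (58 in *LApc* and 602 in *LApcL*) were set beside those with 3 or fewer (97 and 950), a division made after the values had been seen. Of 4198 genes, 60 (1.43%) were 2-fold or more higher and 175 (4.17%) lower in *S100g*-high members of *LApc*, and 23 (0.548%) and 36 (0.858%) in *LApcL*. In both libraries 10 genes (0.238%) were higher and 19 (0.453%) lower. The galectin gene *Lgals1* stood at 599 CPM in *S100g*-high and 73.0 CPM in *S100g*-low members of *LApc*, and at 288 and 49.3 CPM in *LApcL*, log2 ratios of 3.04 and 2.55. *Pitx1* had ratios of 1.70 and 2.70, the parathyroid hormone receptor gene *Pth1r* of 1.40 and 1.83, and *Myl9* of 0.98 and 1.41. Lower in *S100g*-high members were *Chgb*, a protein of hormone granules (-2.54 and -2.58), *Cd74* (-2.22 and -2.35), *Atp4a* (-6.45 and -1.98), *Wfdc18* (-1.96 and -1.64) and *Clu* (-1.52 and -0.62). *Sox17* had ratios of 0.00 and 0.70 and *Msx1* of 0.04 and -0.24, so the rule genes did not follow *S100g* in the same way in both libraries. The median depth was 8560 against 6775 UMIs in *LApc* and 10113 against 8475 in *LApcL*, and its part was not tested.

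A small number of members held most of the *Atp4a* transcripts. *Atp4b*, the other gastric pump gene that was read, was too low to compare in every contrast. Members with 5 or more *Atp4a* UMIs per 3000 were 14 of 169 in *LApc*, or 8.28% (4.60 to 13.5), and 33 of 1885 in *LApcL*, or 1.75% (1.21 to 2.45). They held 98.7% and 69.9% of the *Atp4a* UMIs of the members. The limit was set after the values had been seen. In cycling cells the shares were 0.680% and 0.407%, and among 405, 519 and 301 crypt cells of WT, *LApc* and *LApcL* the number was 0. Scrublet marked 1 of the 14 and 1 of the 33. Summed over these cells, *Muc5ac*, a mucin of the stomach surface, stood at 388 CPM against 12.1 CPM in the other *LApc* members and at 175 against 6.81 CPM in *LApcL*. *Cdh2*, which encodes N-cadherin, stood at 205 against 5.65 and 115 against 3.63 CPM. *Car2*, a carbonic anhydrase, stood at 356 against 14.5 and 442 against 23.1 CPM, *Ctse*, a gastric aspartic protease, at 905 against 153 and 689 against 100.5 CPM, *Apoe* at 916 against 44.4 and 1771 against 188 CPM, and *Dnase1* at 474 against 17.8 and 643 against 77.9 CPM. These genes were picked because they stood higher in the *Atp4a*-rich cells of both libraries, so that direction is a description of the choice. Not every cell had a UMI of each. Of the 14 and 33 cells, 7 and 8 had a UMI of *Muc5ac*, 10 and 17 of *Cdh2*, 12 and 30 of *Car2*, 13 and 30 of *Ctse*, 7 and 29 of *Apoe* and 12 and 30 of *Dnase1*. In *LApc*, these cells were shallower than the other members (median 4923.5 against 7286 UMIs), and the part of depth was not tested.

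*Clu* was uneven as well. Members with 10 or more *Clu* UMIs per 3000 were 22 in *LApc*, or 13.0% (8.34 to 19.0), and 129 in *LApcL*, or 6.84% (5.75 to 8.08), and they held 57.3% and 66.5% of the *Clu* UMIs. In cycling cells the shares were 6.12% and 2.39%, and in crypt cells of WT, *LApc* and *LApcL* they were 0%, 1.16% and 1.66%. Summed over *Clu*-rich members, *Cldn18*, a claudin of stomach and lung, stood at 170 against 25.6 CPM in the other members of *LApc* and 143 against 6.06 CPM in *LApcL*. The gastrokine genes *Gkn3* and *Gkn1* stood at 1287 against 282 and 442 against 97.2 CPM in *LApc*, and at 613 against 106 and 340 against 24.0 CPM in *LApcL*. *Wfdc18*, whose share is limited by the rule, still stood at 297 against 103 and 218 against 18.5 CPM. These genes, too, were picked because they stood higher in the *Clu*-rich cells of both libraries. Of the 22 and 129 *Clu*-rich cells, 9 and 53 had a UMI of *Cldn18*, 11 and 90 of *Gkn3*, 10 and 56 of *Gkn1* and 16 and 64 of *Wfdc18*. Over a list of 12 gastric genes, 5 or more summed UMIs per 3000 were present in 20.1% of *LApc* members and 10.1% of *LApcL* members, in 7.48% and 3.71% of cycling cells, and in 2.72%, 2.50% and 2.99% of crypt cells. The gastric list was chosen after values had been seen.

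Hormone-bearing cells made up a further share. Of *LApc* members 3 (1.78%) and of *LApcL* members 69 (3.66%, 2.86 to 4.61) had 5 or more UMIs per 3000 over 8 hormone and granule genes. Cycling cells had 3.06% and 1.70%, and crypt cells 5.68%, 3.85% and 3.65% in WT, *LApc* and *LApcL*. In the 69 *LApcL* members, the incretin gene *Gip* stood at 9293 CPM, the granule gene *Chgb* at 5613 CPM, *Sct*, which encodes secretin, at 4176 CPM and *Cck*, which encodes cholecystokinin, at 2021 CPM. All of these, with *Chga*, *Neurod1*, *Tac1* and *Tph1*, were the 8 genes that chose the cells, so their levels describe the choice. A UMI of *Gip* was found in 30 of the 69, of *Cck* in 21, of *Chgb* in 56 and of *Sct* in 63. The *Gip* and *Cck* levels rested on few cells, since 5 *LApcL* members had 10 or more *Gip* UMIs per 3000, up to 652, and 3 had 10 or more *Cck* UMIs, up to 167. Scrublet marked 16 of them. Their median depth was 6530 UMIs against 9109.5 in the other members, and their summed *Sox17* and *Msx1* count was 4 against 6 at the median. These cells were nearer to the rule's limit than other members. A group of 22 *LApcL* members with 5 or more UMIs of *Fabp6*, a bile acid-binding protein of the ileum, differed again, since 13 were marked as doublets and 6 lay above the enterocyte limit.

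**Figure D4:**
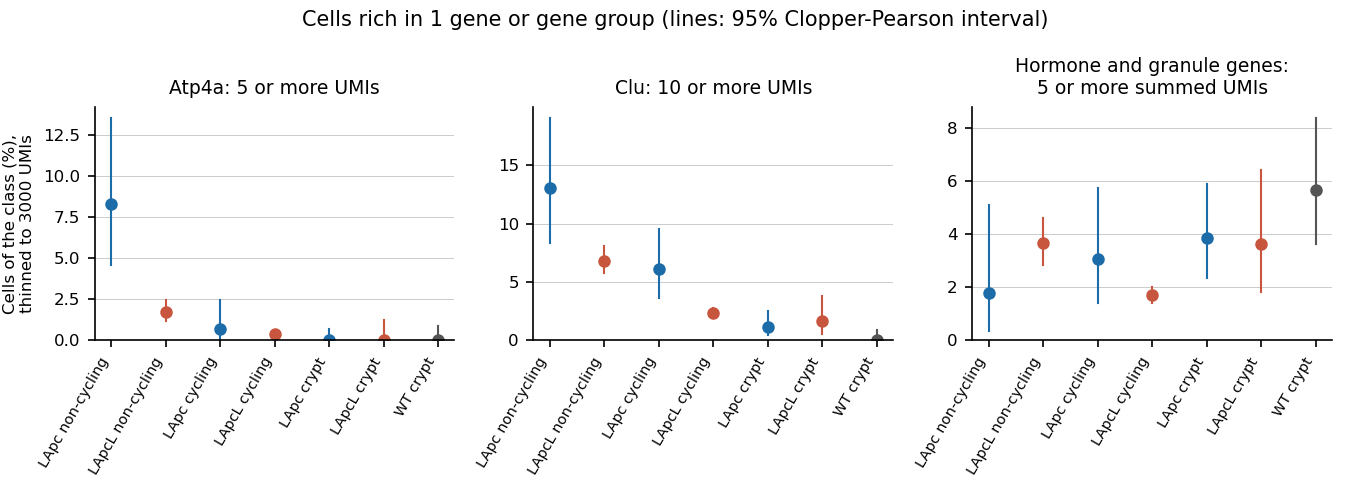
Share of cells (percent, with exact binomial 95% intervals) rich in *Atp4a* (5 or more UMIs per 3000), *Clu* (10 or more) or 8 hormone and granule genes (5 or more), by class and library. *Atp4a*-rich and *Clu*-rich cells are most frequent among *LApc* members (8.28% and 13.0%), and hormone-bearing cells are 3.66% of *LApcL* members and 3.65% of *LApcL* crypt cells.

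The members of *LApcL* were then compared with those of *LApc*, the comparison that the added *Lef1* deletion addresses. *Lef1* (ENSMUSG00000027985, chromosome 3, 131110471 to 131224356, plus strand) had 21 UMIs (15.7 CPM) in *LApc* members and 91 UMIs (5.07 CPM) in *LApcL* members, a log2 ratio of -1.63 (-2.33 to -0.87), and 1.39, 3.20 and 3.99 CPM in crypt cells of WT, *LApc* and *LApcL*. *Apc* stood at 50.9 and 39.1 CPM in members, a ratio of -0.38 (-0.74 to -0.00). Tags from the 3′ end do not show whether the floxed exons had been removed, so neither level checks the deletion. The relatives *Tcf7* and *Tcf7l2* had ratios of -0.12 (-0.63 to 0.44) and 0.21 (-0.10 to 0.53), both with intervals that span 0.

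Of 4651 genes, 21 (0.452%) were 2-fold or more higher in *LApcL* members and 122 (2.62%) lower, around a median of -0.07. Scaling by the trimmed mean of M-values moved every ratio up by 0.17 and gave 36 higher and 84 lower. Intervals of 987 genes (21.2%) lay below 0 and of 467 (10%) above it. In the Wnt feedback list, *Nkd1* stood at 378 and 177 CPM in the members of *LApc* and *LApcL*, a ratio of -1.09 (-1.23 to -0.96), *Notum* at 225 and 118 CPM, -0.93 (-1.11 to -0.75), and *Znrf3*, a ubiquitin ligase that removes Wnt receptors, at 58.4 and 26.5 CPM, -1.14 (-1.49 to -0.78). *Axin2*, at 160 and 154 CPM, gave -0.06 (-0.26 to 0.15). *Wif1*, *Dkk2* and *Dkk3* were too low to enter the count. *Wif1* had 60 UMIs (44.9 CPM) in *LApc* and 26 UMIs (1.45 CPM) in *LApcL*, a ratio of -4.95 (-5.68 to -4.27), *Dkk3* gave -2.78 (-3.48 to -2.03) and *Dkk2* gave -1.78 (-2.34 to -1.18). Of the 5 measured genes of the list, 4 had intervals below 0 and 2 were 2-fold or more lower. In cycling cells, *Nkd1*, *Notum* and *Wif1* had ratios of -1.08, -0.75 and -6.12, and in crypt cells -0.23, 0.14 and -4.05. *Wif1* was therefore low in every *LApcL* class read, while *Nkd1* and *Notum* differed in the adenoma classes.

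Other Wnt targets split. *Sp5*, a zinc finger factor, stood at 88.3 and 36.9 CPM (-1.26), *Tnfrsf19* at 57.6 and 23.2 CPM (-1.31), *Prox1* at 168 and 67.9 CPM (-1.30) and *Sox9* at 134 and 84.4 CPM (-0.67). *Tnfrsf19* reached the limit of 25 CPM through *LApc* members alone, so its direction was set by that limit. *Cd44*, a hyaluronan receptor, stood at 77.1 and 133 CPM, a ratio of 0.79 (0.50 to 1.08), and had 0.66 in cycling cells and 0.67 in crypt cells. *Ccnd2* gave 0.33 (0.23 to 0.43). *Myc* stood at 66.6 and 67.2 CPM, a ratio of 0.01 (-0.30 to 0.34), so no difference was detectable at this depth within those bounds. The Myc-related nucleolar genes had a median of 0.22 against -0.07 over all genes, and 6 of 9 had intervals above 0, beside 10% of all genes, *Ncl* by 0.42 (0.32 to 0.51), which gave 0.21 in cycling and 0.34 in crypt cells.

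**Figure D5:**
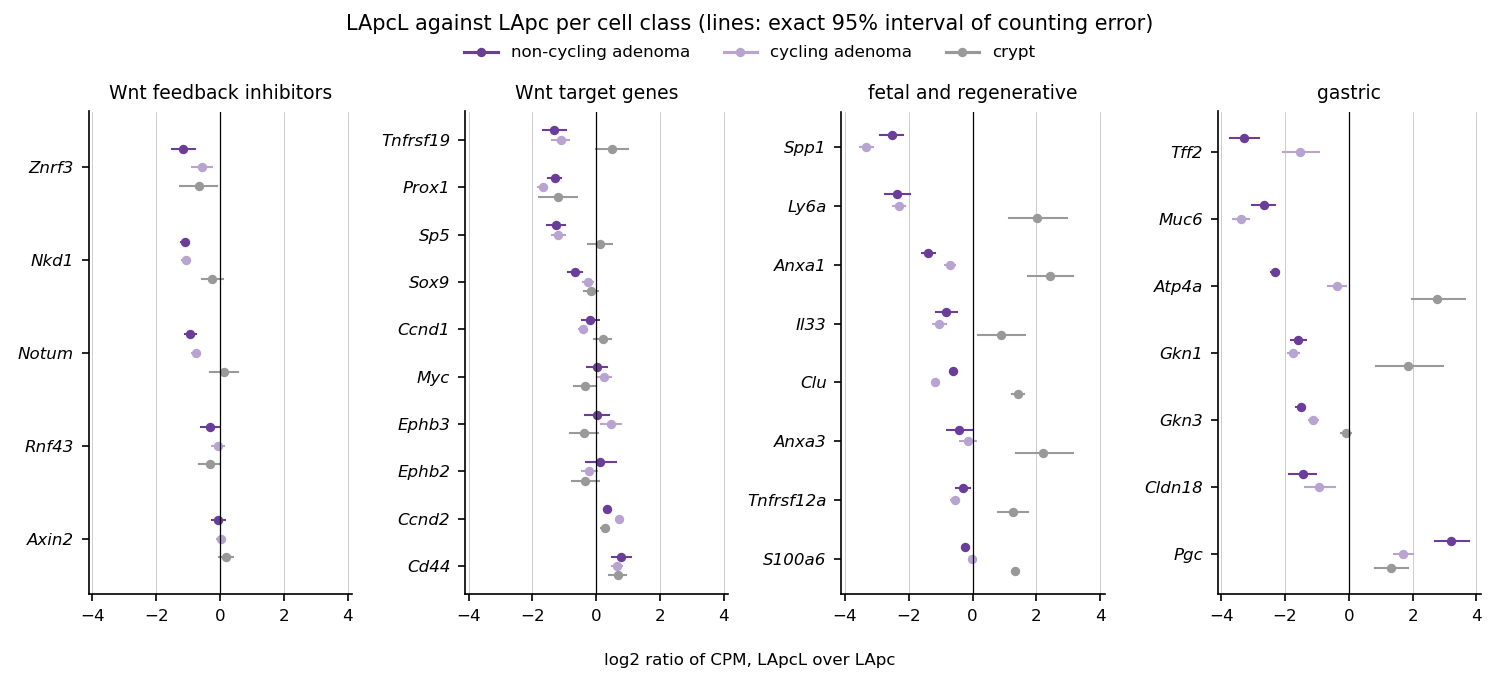
Log2 ratio of *LApcL* over *LApc* in non-cycling adenoma cells, cycling adenoma cells and crypt cells, for Wnt feedback inhibitors, Wnt target genes, 8 of the 9 measured fetal and regenerative genes, and gastric genes, with exact conditional 95% intervals. *Nkd1*, *Notum*, *Sp5* and *Prox1* lie below 0 in both adenoma classes, *Cd44* lies above 0 in all 3 classes, and among the gastric genes *Pgc* (3.21) lies opposite to the others.

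Fetal and regenerative genes stood lower in *LApcL* members. Of the 15 genes of the list, 6 were too low to compare. All 9 measured genes had intervals below 0, beside 21.2% of all genes. Of them, 4 were 2-fold or more lower, beside 2.62% of all genes, and the median was -0.83. *Spp1* and *Ly6a* reached the limit of 25 CPM through *LApc* members alone, so their direction was set by that limit. *Spp1*, which encodes osteopontin, stood at 74.1 and 12.8 CPM (-2.54), *Ly6a*, the Sca-1 surface protein, at 55.4 and 10.8 CPM (-2.36) and *Anxa1* at 182 and 69.4 CPM (-1.39). *S100a6*, the most abundant of the list, stood at 3100 and 2630 CPM (-0.24). A shift of 0.17 leaves each of these genes below 0. *S100g* itself gave -0.58 (-0.60 to -0.55), *Ifitm1* -0.86 (-0.91 to -0.81) and *Clu* -0.60 (-0.67 to -0.52). In cycling cells they gave -0.93, -0.93 and -1.18. Crypt cells did not follow, since *Anxa1* and *S100a6* gave 2.42 and 1.34 there.

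Gastric genes went both ways. *Pgc*, the pepsinogen C gene, stood at 23.2 CPM in *LApc* members and 214 CPM in *LApcL* members, a ratio of 3.21 (2.70 to 3.77), the highest of the comparison, and gave 1.70 in cycling and 1.33 in crypt cells. Against it, *Tff2*, a trefoil peptide of gastric glands, stood at 53.2 and 5.46 CPM (-3.28), the gland mucin gene *Muc6* at 72.6 and 11.4 CPM (-2.67), *Atp4a* at 473 and 95.2 CPM (-2.31) and *Gkn1* at 138 and 46.0 CPM (-1.58). Of the 12 genes of the gastric list, chosen after values had been seen, 5 were too low to compare. Of the 7 measured, 1 was higher and 6 lower by 2-fold or more, beside 0.452% and 2.62% of all genes. *Tff2*, *Muc6* and *Cldn18* reached the limit of 25 CPM through *LApc* members alone and *Pgc* through *LApcL* members alone. The direction of these genes was thus set by that limit, and so in part were the counts of the list. In *LApc*, 97.2% of *Tff2* and 98.4% of *Atp4a* UMIs lay in the 18 members richest in each, so these ratios rest on few cells.

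Among the other genes higher in *LApcL* members were *Cps1*, the first enzyme of the urea cycle, at 30.7 and 137 CPM (2.16), the brain-type creatine kinase gene *Ckb* at 53.2 and 206 CPM (1.95), *Phgr1* at 240 and 641 CPM (1.41) and the claudin gene *Cldn2* at 50.2 and 119 CPM (1.25). *Phgr1* had 1.20 in crypt cells, so its difference was not particular to adenoma cells. *Cps1* gave -0.47 in crypt cells. *Gip* gave 1.20 (0.98 to 1.42) in members but -3.23 in cycling cells and -0.23 when members were chosen after thinning, and 92.4% of its *LApcL* UMIs lay in 189 of 1889 members. *Cdx1* and *Hnf4a* stood at 50.2 and 81.7 CPM (0.70) and at 50.9 and 76.9 CPM (0.60). Both were thus nearer to their crypt level in *LApcL*.

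Lowest in *LApcL* members was *Vim*, the intermediate filament gene of mesenchyme, at 159 and 4.13 CPM, a ratio of -5.27 (-5.67 to -4.88), with 96.2% of the *LApc* UMIs in 18 members. It gave -5.20 in cycling and -2.46 in crypt cells. The complement factor gene *Cfi* stood at 83.1 and 6.30 CPM (-3.72), *Bex1* at 227 and 20.5 CPM (-3.47) and the stress gene *Nupr1* at 102 and 18.2 CPM (-2.49). *Vim*, *Cfi*, *Bex1* and *Nupr1* reached the limit of 25 CPM through *LApc* members alone, so their direction was set by that limit. *Wfdc18* and *Lcn2*, which mark the cells above the *Wfdc18* limit, stood at 126 and 32.4 CPM and at 44.9 and 1.56 CPM, so transcripts of that state moved with *Vim* and their part was not tested. *Gm8730*, at 2583 and 292 CPM (-3.15), had -3.22 in cycling and -3.39 in crypt cells and thus differed between the libraries in every class read. The p57 gene *Cdkn1c* stood at 114 and 52.6 CPM (-1.11) and *Btg2* at 117 and 56.8 CPM (-1.04). Of 10 enterocyte genes, 9 were measured. All 9 had intervals below 0, beside 21.2% of all genes, and 5 were 2-fold or more lower, beside 2.62%. Among these were *Apoa4* at 689 and 248 CPM (-1.47) and *Fabp2* at 991 and 435 CPM (-1.19). The same genes gave -1.25 and -1.15 in crypt cells, so they moved with the libraries and not with members alone. *Id1*, *Id2* and *Id3* gave 0.12, -0.08 and 0.16, close to the median gene.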

How the data were processed

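Per the labels, EpCAM-positive small-intestinal cells were profiled by droplet RNA sequencing, and the authors quantified them with Cell Ranger 2.1.1 on mm10. The deposited values were raw UMI counts for 27998 genes per barcode, with totals of 140181087 (WT), 79696291 (*LApc*) and 191509615 (*LApcL*). The methods list 2 kit versions and do not assign them to libraries, so kit may differ too and cannot be told apart from genotype. The members and gene lists were chosen with earlier results of these data known.

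UMIs were summed per class and library and given as CPM of all UMIs with exact Poisson intervals. Log2 ratios have conditional binomial intervals and shares have Clopper-Pearson intervals, all exact and at 95%. A gene was measured at a mean of 25 CPM over both sides, with 85 ribosomal protein and 13 mitochondrial genes left out, and a count of 0 was set at a floor of 3 counts. Cells are not replicates and each genotype had 1 library, so no test was run. Named genes were the given markers, genes of 36 lists and the 15 with the largest change per direction, by the smaller of the changes in the libraries where both were read. The *S100g* division, the gastric genes and the limits for rich cells were chosen after values were seen. Cells were thinned to 3000 UMIs for shares per cell. Results of some genes are not reported here. Doublets were scored with Scrublet (scanpy 1.11.5) and kept. Scripts ran under Python 3.11.15 (numpy 2.4.6, scipy 1.17.1, pandas 2.3.3) and R 4.3.3 (edgeR 4.0.16, used only for scaling factors) and were tested on simulated data. Alternatives were other limits of the rule, filters, scalings, depths, crypt cells and doublet removal.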

Additional observations from a re-analysis of the deposited data

Results flagged for a closer look

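Hormone genes changed sides between contrasts, and these differences were not tested. *Cck* had a log2 ratio of members over cycling cells of -1.03 in *LApc* and 1.20 in *LApcL*. *Gip* had -2.95 and 1.48 in that contrast, and -3.26 and 2.61 against crypt cells of the same library. The ratio of *LApcL* over *LApc* for *Gip* was 1.20 in members and -3.23 in cycling cells. *Bex1* stood above crypt cells in *LApc* (1.76) and below them in *LApcL* (-1.33), also not tested.

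Barcodes that the mitochondrial limit removed were looked at once. Of 413 such barcodes in *LApcL*, 24 (5.81%, 3.76 to 8.52) had 3 or more *Sox17* and *Msx1* UMIs, against 1 of 2342 (0.0427%) in *LApc* and 0 of 62 in WT, which allows a share of up to 5.78% there as the exact upper limit.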

How the results depend on the processing

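No paired analysis was possible because each genotype had 1 library, and for the same reason no library could be left out. The cause was not tested for any of the changes below. The number of members became 90 in *LApc* with 5 or more *Sox17* and *Msx1* UMIs and 107 after thinning, and in *LApcL* 915 with 0 mitosis UMIs and 3208 with at most 3. The non-cycling share was 31.7% (5 or more UMIs), 25.2% (0 mitosis UMIs), 49.2% (at most 3) and 65.6% (thinned) in *LApc*, and 21.9% (2 or more UMIs), 18.2%, 9.88%, 34.6%, 53.8% and, without the highest Scrublet scores, 22.2% in *LApcL*.

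Genes higher in *LApcL* than in *LApc* members numbered 36 with TMM scaling, 68 with members chosen after thinning, 34 with 5 or more UMIs, 33 with 0 mitosis UMIs, 405 without a filter and 7 at 100 CPM, and genes lower numbered 228, 5226 and 28 after thinning, without a filter and at 100 CPM. Against cycling cells, without a filter and at 100 CPM, *LApc* gave 2952 and 10 higher and 762 and 24 lower, and *LApcL* 3794 and 9 higher and 651 and 19 lower, with 11 higher in cells of 5000 to 15000 UMIs. Against crypt cells, *LApc* gave 3842 and 113 higher and 985 and 51 lower, and 279 and 290 with median-of-ratios scaling. *LApcL* gave 1259 and 42 higher and 4144 and 30 lower, 268 and 210 against WT crypt cells, and 181 lower against crypt cells with an *Lgr5* UMI.

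Without thinning, the share of members with a UMI was 71.3% (*S100g*), 67.3% (*Clu*) and 94.7% (*Ifitm1*) in *LApc* and 96.9%, 58.3% and 91.7% in *LApcL*. At 2000 UMIs it was 77.7%, 33.2% and 76.7% in *LApcL*, and the variance over the mean of *S100g* was 47.8 and 39.0. Ratios that reversed were *Gip* between the libraries after thinning (-0.23), *Nts* against cycling cells in *LApc* at 5000 to 15000 UMIs (0.34), *Itln1* in *LApc* against WT crypt cells (-0.48), *Clca1* (0.12) and *Ang4* (0.052) in *LApcL* against crypt cells with an *Lgr5* UMI, and *Gip* (-2.30) and *Phgr1* (0.19) in *LApcL* against WT crypt cells. Of the values of single genes, 2981 kept their direction and a change of 2-fold or more, 159 kept the direction only and 7 reversed. Leaving out barcodes found in more than 1 library, or members above the enterocyte limit, was chosen after seeing the data. Counts without a filter include genes of a few UMIs, with 0 set at the floor. The values of *Lef1*, *Wif1*, *Dkk2* and *Dkk3* rest on low counts.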
